A study of Mus musculus with 24 samples.

Results

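The genes described are 8 of those that make proline from glutamate, or make, regulate or break down the polyamines, out of 53465 genes counted in RN2 cells. They are Pycr1 and Aldh18a1 on the proline side and Odc1, Srm, Sms, Amd1, Azin1 and Sat1 on the polyamine side. They were chosen by name for these roles, and all 8 passed the filter on low counts. RN2 is a mouse line of acute myeloid leukaemia driven by Mll-Af9 and NrasG12D, drivers that every group shares. A retroviral vector brought in a hairpin RNA that doxycycline switches on, and the labels number the clones without saying how they were derived. Control clones 2 and 7 carried shRen713, and 2 further sets carried hairpins against Ogdh, clones 1 and 5 with shOgdh346 and clones 3 and 5 with shOgdh2081. Every clone was sampled untreated at day 0 and after 4 days of doxycycline, with 2 libraries each time, which gives 24 libraries in 6 groups of 4. The control received doxycycline too, so a net change, the day 4 minus day 0 change of an Ogdh hairpin minus that of the control, is what both conditions do not share.

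Proline and the polyamines draw on neighbouring carbon. Glutamate is activated and reduced by the enzyme of Aldh18a1 to a semialdehyde that cyclises, and a reductase of the Pycr family then makes proline. Ornithine can enter the same intermediate through Oat, or be decarboxylated to putrescine by ornithine decarboxylase, the product of Odc1. The decarboxylase of Amd1 turns S-adenosylmethionine into the aminopropyl donor with which Srm makes spermidine and Sms makes spermine. Antizymes, such as that of Oaz1, bind ornithine decarboxylase and deliver it to the proteasome, and the antizyme inhibitor of Azin1 takes antizyme away. Sat1 acetylates spermidine and spermine for export or oxidation. Growing blood and leukaemia cells keep these steps active. Glutamate lies next to 2-oxoglutarate, the substrate of the enzyme that Ogdh encodes.

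The windows around the start sites of 4 of these genes are shown because they hold, or lack, the letters bound by factors that are textbook regulators of such genes. They run from 250 bases before to 50 bases after the start, 5′ to 3′ on the gene's strand, from RefSeq on GRCm38.p6. The Pycr1 window lies at chr11:120643699-120643998, that of Aldh18a1 at chr19:40588414-40588713, that of Sms at chrX:157492238-157492537 and that of Sat1 at chrX:155216400-155216699, all on the minus strand. Capitals mark CACGTG, the E-box bound by MYC and MAX, and TGATGNAA, the core of the element bound by C/EBP and ATF4 partners, where N is any base. Both strands were searched and no matches overlapped.
Pycr1: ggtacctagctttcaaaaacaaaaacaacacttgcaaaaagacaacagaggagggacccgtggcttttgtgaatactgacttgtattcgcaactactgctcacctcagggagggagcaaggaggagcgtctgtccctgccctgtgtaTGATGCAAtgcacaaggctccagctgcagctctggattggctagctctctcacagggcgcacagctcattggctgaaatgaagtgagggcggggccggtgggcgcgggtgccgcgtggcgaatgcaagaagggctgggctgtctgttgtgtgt
Aldh18a1: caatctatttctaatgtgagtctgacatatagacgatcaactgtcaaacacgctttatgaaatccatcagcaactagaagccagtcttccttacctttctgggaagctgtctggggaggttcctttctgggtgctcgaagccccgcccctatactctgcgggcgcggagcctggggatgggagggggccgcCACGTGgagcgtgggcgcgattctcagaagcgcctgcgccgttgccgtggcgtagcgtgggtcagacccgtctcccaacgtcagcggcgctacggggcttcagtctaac
Sms: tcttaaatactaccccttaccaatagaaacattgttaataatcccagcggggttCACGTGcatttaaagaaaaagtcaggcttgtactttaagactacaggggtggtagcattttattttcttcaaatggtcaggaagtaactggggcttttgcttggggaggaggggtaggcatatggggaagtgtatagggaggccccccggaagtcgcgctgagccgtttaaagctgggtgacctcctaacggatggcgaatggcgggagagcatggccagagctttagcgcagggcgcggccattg
Sat1: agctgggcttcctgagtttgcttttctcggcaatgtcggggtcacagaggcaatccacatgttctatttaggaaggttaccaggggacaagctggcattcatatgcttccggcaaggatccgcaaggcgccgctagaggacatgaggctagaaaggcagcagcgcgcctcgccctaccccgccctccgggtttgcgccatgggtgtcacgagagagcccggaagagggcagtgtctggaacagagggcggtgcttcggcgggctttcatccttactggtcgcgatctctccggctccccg
In Pycr1, TGATGCAA lies 103 to 96 bases before the start. In Aldh18a1, CACGTG lies 59 to 54 bases before it, and in the first of 2 Sms windows 196 to 191 bases before it. The Sat1 window holds neither set of letters, nor do those of Odc1 and Amd1 or the second Sms window. Srm and Azin1 had no window in the table, so 6 of the 8 genes were searched. Among all 32851 windows of this length, 7.15% hold CACGTG and 3.97% hold TGATGNAA. A match is a run of letters and not a measured binding site.

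Total counts per library ran from 7209186 to 20705468. Levels are given as CPM, a gene's count scaled to the library's TMM-adjusted total, and the lowest count of any member in any library was 39, for Pycr1. Ogdh, the check of the labels, stood between 32.3 and 70.9 CPM in the 8 libraries of the Ogdh hairpins at day 4 and between 206 and 253 CPM in the 4 control libraries. At day 0 the ranges overlapped, at 126 to 235 CPM with the Ogdh hairpins and 202 to 250 CPM in the control. That overlap came from library 2 of shOgdh2081 clone 3, at 235 CPM. The other libraries of that hairpin stood at 163 to 180 CPM and those of shOgdh346 at 126 to 150 CPM, below every control library. The day 0 difference of Ogdh from the control was -0.72 ± 0.32 with shOgdh346 (log2, SE, edgeR unadjusted p = 0.0514). With shOgdh2081 it was -0.28 ± 0.31 (unadjusted p = 0.392), and neither was called. All 12 markers of the leukaemia line and of myeloid cells were present. In the mean net change over both Ogdh hairpins 17.9% of all genes rose and 19.8% fell. Of these 12 markers 3 rose (Ptprc, Spi1 and Lyz2) and 5 fell (Kit, Mpo, Elane, Prtn3 and Ctsg). The summed level per library was at most 8.36 CPM for 8 T and NK cell markers, 16.8 CPM for 6 B cell markers and 3.28 CPM for 8 erythroid markers. Of these, Cd3e, Ncr1, Hbb-bs and Hba-a2 were at 0 in all 24 libraries, while Nkg7 (831 counts in all), Cd79b (653 counts) and Klf1 (200 counts) were not. Neutrophil maturation markers rose with the Ogdh hairpins, 12 of 15 in the mean net change with none falling, and their summed level at day 4 was 7135 to 46260 CPM against 415 to 1495 CPM in the control. Of 12 cell cycle genes all 12 fell, and their summed level was 2244 to 3086 CPM against 4659 to 5145 CPM. Of 10 monocyte and macrophage markers 5 rose and 1 fell, with sums of 2212 to 3171 CPM against 1637 to 1936 CPM at day 4. Of 3 tested megakaryocyte markers Itga2b and Gp1bb rose, by 2.87 and 3.73, and the sum of the list of 5 was 19.5 to 75.3 CPM against 2.02 to 7.76 CPM. With shOgdh346 alone Itga2b did not pass (1.69, edgeR adjusted p = 0.0724), and Gp1bb held at most 92 counts in any library. Of 3 tested stromal and endothelial markers Col1a1 and Pdgfrb rose, by 5.56 and 0.69, and the sums of the list of 8 overlapped. Col1a1 was hardly expressed, with 133 counts in all and at most 28 in any library. Pdgfrb rose with shOgdh2081 (1.36, edgeR adjusted p = 0.00131) and did not pass with shOgdh346 (0.01, adjusted p = 0.972). The difference between the hairpins passed for Pdgfrb (adjusted p = 0.0309). The part of these marker changes in the results on the 8 genes was not tested, and in bulk RNA fewer cells of a type and less RNA per cell cannot be told apart.

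Averaged over the Ogdh hairpins, 6 of the 8 genes fell beyond the control, 1 rose and 1 did not pass the test. Pycr1 fell furthest of the 8, 5.82-fold, and Sat1, the catabolic member, was the one that rose. Of all 14249 genes tested, 19.8% fell and 17.9% rose (edgeR quasi-likelihood test, Benjamini-Hochberg adjusted p under 0.05). The median net change of the 8 genes was -0.72 on the log2 scale, beside -0.00 for all genes. Pycr1, Aldh18a1 and Srm fell more than 2-fold, as did 3.8% of all genes, and Sat1 rose more than 2-fold, as did 8.57%. When each of 4 Ogdh clones was set against each of 2 control clones, every gene but Azin1 moved 1 way in all 8 pairs, and Azin1 was split 4 to 4. The 8 pairs reuse the same clones, and the share of all genes that moved 1 way in them was not counted. With each hairpin on its own the count was again 6 fallen and 1 risen, for shOgdh346 beside 18.4% of all genes falling and 16.4% rising and for shOgdh2081 beside 14.2% and 13.6%. The 2 single-hairpin comparisons and their mean share the control clones. Without control clone 7, 3 of the 8 fell in the mean, 3 with shOgdh346 and 2 with shOgdh2081, and without control clone 2 the single hairpins gave 3 each; with no clone term the counts were 3, 2 and 1.

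**Figure D1:**
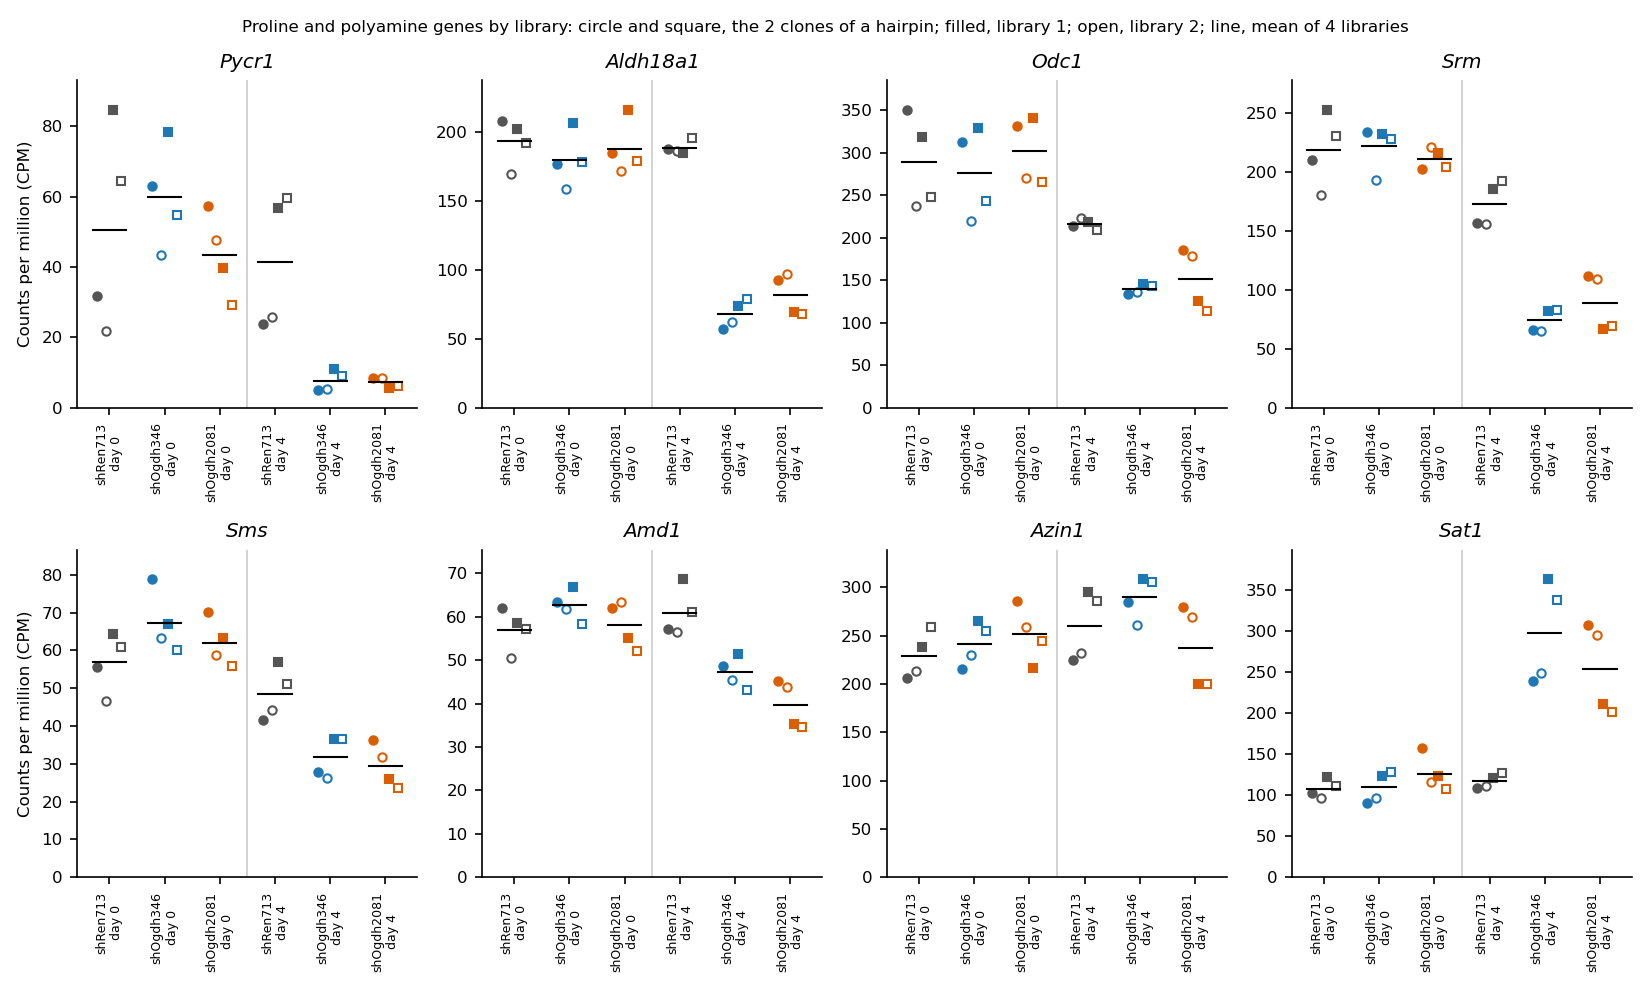
Level of each of the 8 genes in CPM (vertical axis, from 0) in each of the 24 libraries, by hairpin and day (horizontal axis). Circles and squares are the 2 clones of a hairpin, filled symbols the first library and open symbols the second, and bars the mean of 4 libraries. At day 4 the Ogdh libraries lie below every control library for Pycr1, Aldh18a1, Odc1, Srm, Sms and Amd1, above them for Sat1, and among them for Azin1.

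Pycr1 encodes the mitochondrial reductase of the last step to proline (ENSMUSG00000025140, chr11:120635712-120643769, minus strand, GRCm38). In the control libraries it stood at 31.8 and 21.7 CPM in clone 2 and 84.7 and 64.4 CPM in clone 7 at day 0, and at 23.8, 25.9, 56.7 and 59.5 CPM at day 4. In the 8 Ogdh libraries it ran from 29.1 through a median of 51.1 to 78.5 CPM at day 0, and from 5.00 through 7.27 to 11.1 CPM at day 4. The control clones thus spanned the whole Ogdh range at day 0, whereas at day 4 the highest Ogdh library lay below the lowest control library. The mean net change was -2.54 ± 0.20 (log2, SE), a 5.82-fold fall, with an edgeR adjusted p of 9.23e-05. By clone, the log2 change was -3.45 and -2.65 with shOgdh346 and -2.61 and -2.52 with shOgdh2081, against -0.09 and -0.41 in control clones 2 and 7. Because levels differ so much between clones, the Pycr1 call rests on pairing the days within a clone: in a fit with no clone term the net change was -2.45 with an adjusted p of 0.0515.

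Aldh18a1 encodes the enzyme that commits glutamate to proline (ENSMUSG00000025007, chr19:40550257-40588463, minus strand). Its control libraries were close together, at 208, 170, 202 and 192 CPM at day 0 and at 188, 186, 185 and 196 CPM at day 4. The Ogdh libraries ran from 159 through 178 to 216 CPM at day 0 and from 57.2 through 71.4 to 97.0 CPM at day 4, with no overlap with the control at day 4. The mean net change was -1.28 ± 0.15 (SE, edgeR adjusted p = 0.000438), a 2.42-fold fall. Clone 3 of shOgdh2081 changed by -0.92 and the other 3 Ogdh clones by -1.33 to -1.51.

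The genes around these proline steps did not move as one. Of 10 tested genes of proline synthesis, breakdown and transport outside the 8, 3 fell and 1 rose, beside 19.8% and 17.9% of all genes. Their median net change was -0.12. Pycrl, the reductase also called Pycr3, ran from 18.9 to 25.6 CPM in the Ogdh libraries and from 31.3 to 45.1 CPM in the control at day 4. It fell by 0.82 on the log2 scale (SE 0.14, adjusted p = 0.00184). Oat, which joins ornithine to the same intermediate, ran from 48.2 to 59.2 CPM against 105 to 114 CPM. It fell by 1.01 (SE 0.10, adjusted p = 0.000159). Prodh and Aldh4a1, which degrade proline, had net changes of -0.22 (adjusted p = 0.395) and 0.16 (adjusted p = 0.482). Glud1, which interconverts glutamate and 2-oxoglutarate, had a net change of -0.03 (adjusted p = 0.779).

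The other genes of this list that passed were Slc38a2 and Arg2. Slc38a2, a transporter of neutral amino acids that include proline, had a net change of -0.41 (adjusted p = 0.0299), but the mean of the Ogdh clones went from 271 to 280 CPM while that of the control went from 259 to 355 CPM. Its call was lost without either control clone (adjusted p = 0.154 and 0.178), without clone 5 of shOgdh2081 (adjusted p = 0.061) among genes of at least 5 CPM (0.0622) and in the fit with no clone term (0.254). It was also lost without any 1 of 4 day 0 libraries (adjusted p = 0.0549 to 0.079), which were library 2 of shOgdh2081 clone 3, library 2 of shOgdh346 clone 1 and library 1 of either control clone. Arg2, an arginase that makes ornithine, was hardly expressed. It summed to 138 counts over the 8 Ogdh libraries at day 4 against 17 at day 0, and to 4 counts over the 4 control libraries against 15 at day 0. Its call was lost without control clone 2 and with the day 0 libraries of number 2 alone (adjusted p = 0.0576 in both).

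On the polyamine side, Odc1 encodes the rate-limiting ornithine decarboxylase (ENSMUSG00000011179, chr12:17544794-17551505, plus strand). The control libraries gave 350, 237, 318 and 247 CPM before doxycycline and 214, 223, 219 and 209 CPM after it. With the Ogdh hairpins it ran from 219 through 291 to 341 CPM at day 0 and from 114 through 140 to 186 CPM at day 4. Odc1 was the one member that lay lower in every day 4 than in every day 0 library of the control as well, a pattern that 8.34% of genes shared, and no member lay wholly higher at day 4, as 9.49% did. The net change was -0.58 ± 0.16 (SE, edgeR adjusted p = 0.0177). Of the 6 falls, this call was lost in the most alternatives, 5 of 38, namely without control clone 2 or 7 (adjusted p = 0.116 and 0.104), without day 0 library 1 of shOgdh2081 clone 3 (0.0526), without day 0 library 2 of control clone 2 (0.058) and with no clone term (0.0707).

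Srm makes spermidine (ENSMUSG00000006442, chr4:148591503-148594993, plus strand). Its control libraries held 211, 181, 253 and 231 CPM at day 0 and 157, 156, 186 and 192 CPM at day 4. The Ogdh libraries ran from 193 through 219 to 234 CPM at day 0 and from 65.4 through 75.9 to 112 CPM at day 4, all below the control at day 4. The net change was -1.09 ± 0.17 (SE, edgeR adjusted p = 0.00211), a 2.13-fold fall. Clone 3 of shOgdh2081 again changed least, by -0.94, against -1.48 to -1.75 in the other Ogdh clones and -0.32 and -0.37 in the control clones.

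Sms makes spermine (ENSMUSG00000071708, chrX:157443855-157492287, minus strand). In the control it stood at 55.6, 46.5, 64.3 and 60.9 CPM at day 0 and at 41.6, 44.1, 56.9 and 51.2 CPM after doxycycline. In the Ogdh libraries it ran from 55.9 through 63.3 to 78.8 CPM at day 0 and from 23.6 through 29.8 to 36.7 CPM at day 4. The groups overlapped at day 0 and were apart at day 4. The net change was -0.86 ± 0.19 (SE, edgeR adjusted p = 0.00832), and the call was lost without control clone 2 or 7 (adjusted p = 0.0552 and 0.0687) and with no clone term (0.0531). The processed copy Sms-ps held 6 to 29 counts per library, against 196 to 1457 for Sms.

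Amd1 makes the aminopropyl donor (ENSMUSG00000075232, chr10:40287458-40302186, minus strand). The control libraries held 62.0, 50.5, 58.5 and 57.1 CPM untreated and 57.1, 56.5, 68.6 and 61.1 CPM after 4 days. The Ogdh libraries went from 52.0 through 61.9 to 66.9 CPM to between 34.7 and 51.3 CPM, with a median of 44.5 CPM. At day 4 every Ogdh library was again below every control library. The net change was -0.56 ± 0.10 (SE, edgeR adjusted p = 0.00247), and the call was lost without control clone 7 (0.0693). Its near copy Amd2 held at most 7 counts in any library.

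Azin1, the antizyme inhibitor that protects ornithine decarboxylase (ENSMUSG00000037458, chr15:38487427-38519266, minus strand), gave no net change past the threshold. Its control libraries were at 206, 213, 238 and 259 CPM on day 0 and 225, 232, 295 and 286 CPM on day 4, and the Ogdh libraries ran from 215 through 249 to 286 CPM and from 200 through 274 to 308 CPM. The groups overlapped on both days. The mean net change was -0.08 ± 0.10 (SE, edgeR adjusted p = 0.526). With shOgdh346 alone it rose by 0.27 from day 0 to day 4 (adjusted p = 0.0146). The changes in the control clones were 0.12 and 0.24, and the net change with that hairpin was 0.09 (adjusted p = 0.571). The 0.27 call was lost without shOgdh346 clone 1 or 5 (adjusted p = 0.134 and 0.0594), without control clone 2 (0.0519) and with no clone term (0.273). Azin1 shares 358 exon bases with an antisense gene, Gm49077, and since the strand setting of the counting is not given in the sources used here, its counts are uncertain. Oaz1, which encodes the antizyme that Azin1 binds, had a net change of -0.27 ± 0.09 (SE, edgeR adjusted p = 0.0529). In the control it changed by -0.31 from day 0 to day 4 (edgeR adjusted p = 0.0468). At day 4 Oaz1 held 140 to 189 CPM in the Ogdh libraries and 192 to 211 CPM in the control. These do not overlap, and 20.1% of all genes lay wholly below the control in this way. It passed as fallen in 11 of 38 alternatives.

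Sat1, the acetyltransferase that opens the breakdown of spermidine and spermine (ENSMUSG00000025283, chrX:155213132-155216449, minus strand), went the other way. The control libraries held 102, 96.2, 122 and 111 CPM at day 0 and 109, 111, 121 and 127 CPM at day 4. The Ogdh libraries ran from 90.9 through 120 to 157 CPM at day 0 and from 201 through 272 to 363 CPM at day 4. The groups overlapped before doxycycline, and at day 4 the lowest Ogdh library was above the highest control library. The net change was 1.12 ± 0.11 (SE, edgeR adjusted p = 0.000156), a 2.18-fold rise. Each Ogdh clone rose, by 1.40 and 1.49 with shOgdh346 and by 1.16 and 0.86 with shOgdh2081, against 0.15 and 0.07 in the control clones.

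Among 11 tested polyamine genes outside the 8, 1 rose and 1 fell, beside 17.9% and 19.8% of all genes. Their median net change was -0.27. The one that rose was Smox, the oxidase that turns spermine back into spermidine. It stood at 13.4 to 22.8 CPM in the control libraries and at 88.3 to 143 CPM in the Ogdh libraries at day 4, from 13.4 to 20.1 CPM at day 0. Its net change of 2.81 ± 0.24 (SE, edgeR adjusted p = 0.000224) was larger than that of Sat1, a difference that was not tested, and it passed in all 38 alternative fits. Paox, the oxidase that acts on acetylated polyamines, had a net change of -0.55 ± 0.20 (SE, adjusted p = 0.0535). It lay at 8.89 to 14.5 CPM in the Ogdh libraries and at 15.1 to 25.02 CPM in the control at day 4. There was no overlap, and 20.1% of all genes lay wholly below the control in this way. Paox passed as fallen in 12 of 38 alternatives and with shOgdh346 alone (-0.68, adjusted p = 0.0433). The gene that fell was Slc7a1, a transporter of arginine, lysine and ornithine, with a net change of -1.002 ± 0.13 (SE, adjusted p = 0.000595) and 130 to 231 CPM in the Ogdh libraries against 293 to 355 CPM in the control at day 4.

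**Figure D2:**
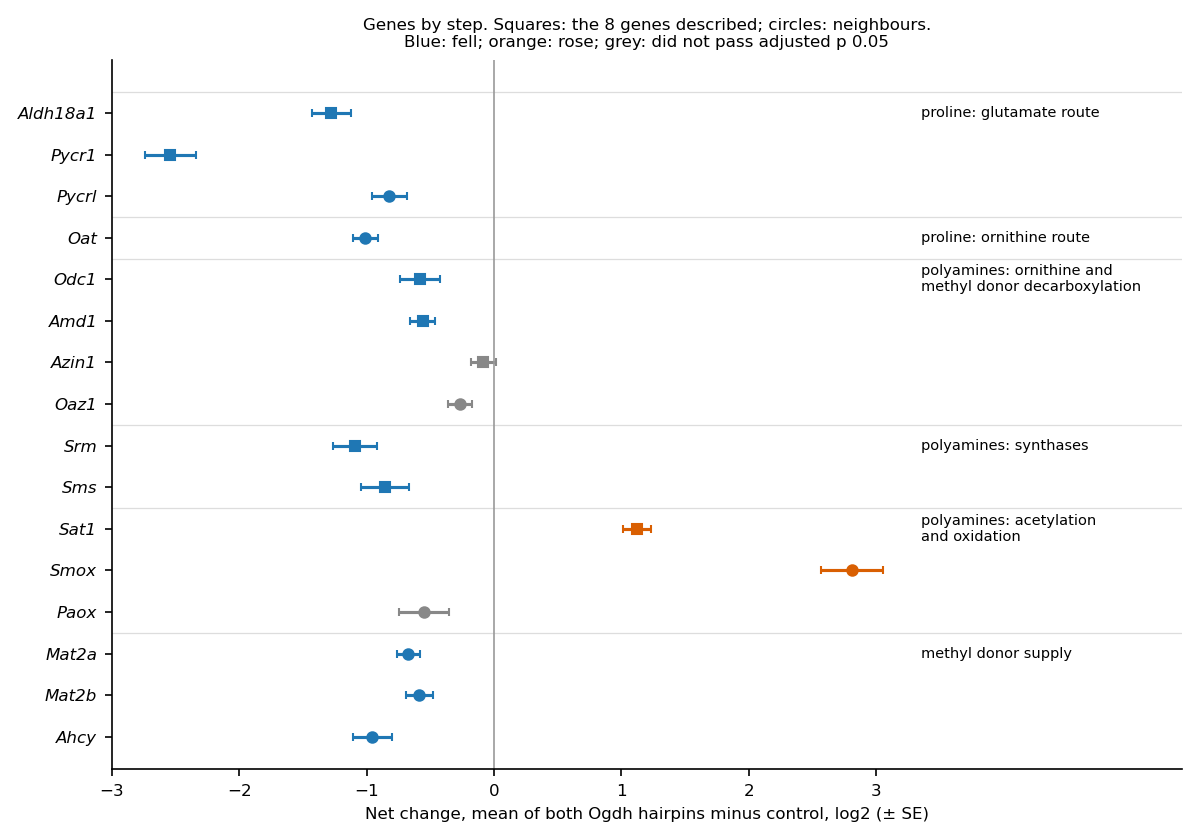
Net change of genes by step, as the mean of both Ogdh hairpins minus the control (horizontal axis, log2), with standard errors; squares are members of the set of 8 and circles their neighbours. Pycr1 lies at -2.54, Aldh18a1 at -1.28 and Pycrl at -0.82, and Sat1 and Smox lie at 1.12 and 2.81 while the genes of polyamine synthesis lie between -1.09 and -0.08.

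A further 12 tested genes make or recycle S-adenosylmethionine, which Amd1 consumes, or salvage what the synthases leave behind. Of these 7 fell, none rose and 5 did not pass, beside 19.8% of all genes falling and 17.9% rising. Their median net change was -0.52, beside -0.00 for all genes. With shOgdh2081 alone 5 of the 12 fell, beside 14.2% of all genes, and with shOgdh346 alone 7, beside 18.4%. Mat2a, which makes S-adenosylmethionine, fell by 0.67 (SE 0.09, adjusted p = 0.000649) and its regulatory subunit gene Mat2b by 0.59 (SE 0.10, adjusted p = 0.00243). Ahcy, which clears S-adenosylhomocysteine, fell by 0.96 (SE 0.15, adjusted p = 0.00152). Mri1 and Adi1, of the methylthioadenosine salvage that follows Srm and Sms, fell by 0.78 and 0.98 (adjusted p = 0.00143 and 0.00448), whereas Mtap, its first enzyme, had a net change of -0.22 (adjusted p = 0.308). With no clone term the adjusted p was 0.0632 for Mat2b and 0.0588 for Adi1. Mtr and Enoph1 also passed, with net changes of -0.60 and -0.45 (edgeR adjusted p = 0.013 and 0.0301). They lost the call in 3 and 7 of 38 alternatives. Of 4 genes of the hypusine route, in which spermidine modifies the translation factor eIF5A, Eif5a itself fell by 0.54 (adjusted p = 0.0101, and 0.118 and 0.108 without control clone 2 and 7). The modifying enzymes Dhps and Dohh had net changes of -0.09 and -0.17 (adjusted p = 0.545 and 0.467).

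Of 11 tested genes for transcription factors of the MYC network and of the ATF4 response, 3 rose and 3 fell, beside 17.9% and 19.8% of all genes. Atf4 fell by 0.58 on the log2 scale (SE 0.15, adjusted p = 0.0151), with 287 to 445 CPM in the Ogdh libraries and 591 to 621 CPM in the control at day 4. The Atf4 call was lost without control clone 2 or 7 (adjusted p = 0.138 and 0.0736). Atf5, a relative induced in the same response, fell by 0.90 (SE 0.13, adjusted p = 0.00112). Cebpb rose by 1.11 (SE 0.12, adjusted p = 0.000257). Mxd1, which competes with MYC for MAX, rose by 1.79 (SE 0.16, adjusted p = 0.000115), with Ogdh libraries at 20.04 to 35.4 CPM at day 0 and 87.1 to 124 CPM at day 4. Myc itself had a net change of -0.52 (SE 0.12, edgeR adjusted p = 0.00827), and in the control it rose by 0.64. Its day 0 level differed by library number. Library 1 stood at 85.8 and 119 CPM in control clones 2 and 7, and library 2 at 177 and 234 CPM. With the Ogdh hairpins library 1 ran from 85.4 to 133 CPM and library 2 from 199 to 229 CPM. At day 4 Myc held 160 to 206 CPM in the Ogdh libraries and 199 to 274 CPM in the control, which overlap. The Myc call was lost without any 1 of 4 day 0 libraries (adjusted p = 0.156 to 0.562), which were library 2 of shOgdh2081 clone 3, library 2 of shOgdh346 clone 5 and library 1 of either control clone. It was also lost without control clone 7 (0.108), with the day 0 libraries of number 1 alone (0.191) and with no clone term (0.114). The Myc net change ran from -0.83 without day 0 library 2 of control clone 2 to -0.26 without day 0 library 1 of control clone 7. Mxi1, another partner of MAX, was the third to rise, by 0.31 (adjusted p = 0.0393), and lost its call in 15 of 38 alternatives (adjusted p up to 0.272), among them without either control clone. Whether these factors act on the 8 genes was not measured.

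From day 0 to day 4 the control showed no called change in any of the 8 genes by edgeR's quasi-likelihood test, where 6.88% of all genes were called, and none by DESeq2. Of the 8, 3 genes (Odc1, Srm and Azin1) had an unadjusted p under 0.05. The largest of these changes were -0.43 ± 0.13 for Odc1 (SE, adjusted p = 0.0804) and -0.35 ± 0.14 for Srm (adjusted p = 0.179). Whether they passed depended on the processing: Odc1 passed as fallen in 9 of 38 alternatives and Srm in 4. Among these were the fits without clone 3 or clone 5 of shOgdh2081. With a clone left out the change ran from -0.44 to -0.41 for Odc1 and from -0.37 to -0.32 for Srm. For Odc1 the edgeR adjusted p was 0.0325 to 0.0468 without any 1 of 4 day 0 libraries. These were library 2 of shOgdh2081 clone 3, library 1 of shOgdh2081 clone 5 and library 2 of either control clone. With no filter on low counts both passed (0.00123 for Odc1 and 0.0187 for Srm). With libraries unsummed, 5 genes passed, namely Pycr1 (-0.46, adjusted p = 0.000735), Odc1 (-0.59, 4.58e-05), Srm (-0.39, 0.00922), Sms (-0.28, 0.0272) and Azin1 (0.22, 0.0041). The 980 genes behind the 6.88% became 17 and 8 without control clone 2 and 7. They became 239 and 189 without day 0 library 1 of these clones, and 1476 without day 0 library 2 of clone 2. In the Ogdh groups' own change over the 4 days, 6 genes fell and 2 rose with shOgdh346, beside 29.3% and 30.2% of all genes, and 6 fell and 1 rose with shOgdh2081, beside 25.9% and 27.5%. Every day 4 Ogdh library lay below every day 0 Ogdh library for the 6 fallen genes, as for 17.2% of all genes, and above for Sat1, as for 14.9%.

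**Figure D3:**
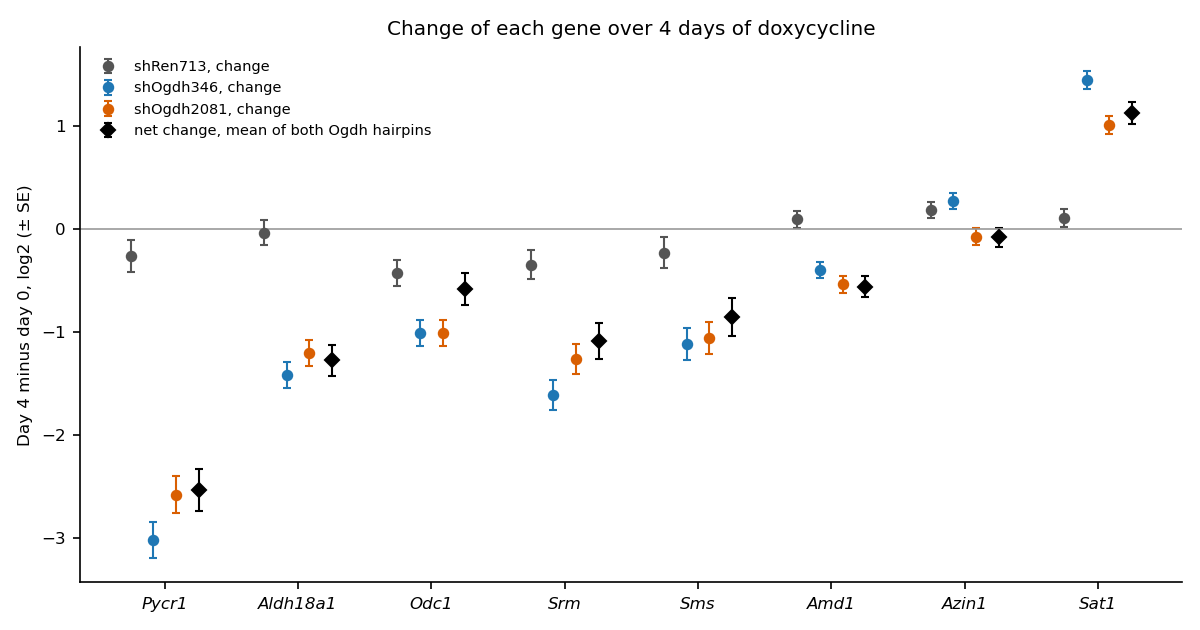
Day 4 minus day 0 change of each gene on the log2 scale (vertical axis) with standard errors, for the control, for each Ogdh hairpin, and as the mean net change. Pycr1 changed by -3.02 and -2.59 with the Ogdh hairpins and by -0.26 in the control, and the control's points for all 8 genes lie between -0.43 and 0.18.

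Before doxycycline none of the 8 genes was called between the Ogdh hairpins and the control. The edgeR test called 0 of 14249 genes at day 0, of which 272 had an unadjusted p under 0.05 and none of these was a member, and DESeq2 called 2, no member. The mean differences of the 8 genes at day 0 ran from -0.07 ± 0.13 for Aldh18a1 to 0.19 ± 0.18 for Sms (log2, SE), and all 8 overlapped between the libraries, where 0.323% of genes lay wholly below and 0.239% wholly above the control, with the widest standard error, 0.50, for Pycr1. At day 4 the same comparison called 6 of the 8 lower, beside 21.2% of all genes, and Sat1 higher, beside 17.5%. In 20.1% of all genes every Ogdh library was below every control library at day 4 and in 16.8% every one was above, as for these 6 and for Sat1. With shOgdh346 alone 4 were lower and 1 higher at day 4, beside 19.5% and 16.3% of all genes, since Sms and Amd1 just missed (adjusted p = 0.0516 and 0.0526). With shOgdh2081 alone 6 were lower and 1 higher, beside 15.2% and 13.4%. The calls on the mean were lost for Odc1 without control clone 2 or 7 (adjusted p = 0.0782 and 0.0716), for Amd1 without control clone 7 (0.109) and for Sat1 without control clone 2 (0.05). For Sms the call was lost without control clone 7 (0.163), shOgdh346 clone 1 (0.061) or shOgdh2081 clone 5 (0.0653).

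No difference between the 2 Ogdh hairpins in the change of any of the 8 genes passed the threshold, in a test by edgeR that called 0.105% of all genes. Those 15 genes became 2 without day 0 library 1 of shOgdh2081 clone 3, 38 without day 0 library 1 of shOgdh346 clone 5 and 59 without that clone. Azin1 and Sat1 had an unadjusted p under 0.05, with shOgdh2081 minus shOgdh346 at -0.34 ± 0.11 (SE, adjusted p = 0.363) and -0.43 ± 0.12 (SE, adjusted p = 0.286), and DESeq2 called no member. When libraries were not summed and their number was a block, both passed (-0.36, adjusted p = 0.00155, and -0.43, adjusted p = 0.00295), but that fit counts 2 libraries of a clone as separate. For the 6 fallen genes the difference ran from -0.14 ± 0.11 for Amd1 to 0.44 ± 0.25 for Pycr1, none of them past the threshold. Within shOgdh2081, clone 3 held more Ogdh than clone 5 at day 0 (209 against 166 CPM) and at day 4 (69.1 against 35.7 CPM). Each of the 8 genes was also higher in clone 3 at day 4. Among them were Aldh18a1 (93.8 against 69.2 CPM), Odc1 (183 against 121 CPM), Srm (110 against 69.0 CPM), Azin1 (275 against 203 CPM) and Sat1 (302 against 208 CPM). Within shOgdh346, Ogdh at day 4 was at 34.7 CPM in clone 1 and 54.8 CPM in clone 5, and each of the 8 genes was higher in clone 5. At day 0 clone 3 of shOgdh2081 was already higher for Pycr1, Srm, Sms, Amd1, Azin1 and Sat1, and lower for Aldh18a1 and Odc1. Clone 5 of shOgdh346 was higher at day 0 for Ogdh (148.1 against 128.5 CPM), Pycr1, Aldh18a1, Srm, Azin1 and Sat1, and lower for Odc1, Sms and Amd1. The share of all genes that were higher in these clones was not counted. With 1 value per clone these contrasts have no test.

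The 2 libraries of a clone carry numbers, and at day 0 these numbers marked a difference that was shared by the clones. Comparing library 2 with library 1 at day 0, edgeR called 5 of the 8 genes lower, beside 21.2% of all 13211 genes tested, and none higher, beside 22%. Pycr1 differed by -0.45 ± 0.05 and Odc1 by -0.42 ± 0.03 (log2, SE, adjusted p = 4.26e-12 and 1.17e-18), Sms by -0.21, Aldh18a1 by -0.18 and Srm by -0.10 (adjusted p = 3.56e-05, 5.68e-07 and 0.00718). Odc1 was lower in library 2 of all 6 clones, for example at 237 against 350 CPM in control clone 2. At day 4 the test called none of the 8, beside 2.31% of all genes, and Amd1 alone had an unadjusted p under 0.05. Between the days this library difference itself differed for Pycr1, Aldh18a1 and Odc1, 3 of the 8, each lower at day 0, as for 13.7% of all genes, while 15.9% went the other way. That comparison was added after seeing the data. The labels do not say what the numbers stand for. The net changes hardly moved when either day 0 set was used alone: Pycr1 was at -2.55 and -2.53 with library 1 and library 2, Odc1 at -0.57 and -0.60, Sms at -0.90 and -0.79 and Sat1 at 1.09 and 1.14, with the same 6 falls and 1 rise called. The control's own change did move, for Pycr1 to 0.00 and for Aldh18a1 to 0.06 with library 2, and for Odc1 to -0.61 with library 1 (adjusted p = 0.012). The Aldh18a1 change in the control was also 0.035 without day 0 library 1 of control clone 2.

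**Figure D4:**
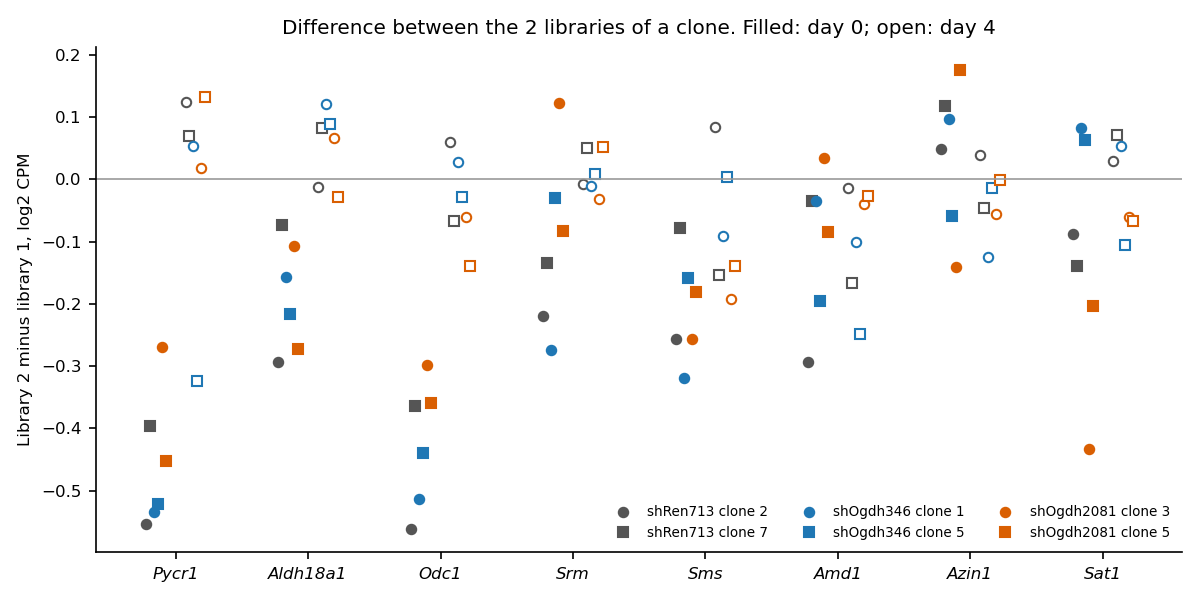
Library 2 minus library 1 of each clone (vertical axis, log2 CPM) for the 8 genes, filled at day 0 and open at day 4, with colour for the hairpin and shape for the clone. All 6 filled points lie below 0 for Pycr1, Aldh18a1, Odc1 and Sms, and the open points lie on both sides of 0 for these genes.

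Compared per length, as mean CPM per kilobase of the deposited transcript length, the control at day 0 ranked Srm first at 138 ± 22.2 (SD, n = 2 clones), then Odc1 at 85.6 ± 0.210 and Aldh18a1 at 47.5 ± 1.91. Sat1 at 39.1 ± 4.89 and Azin1 at 36.5 ± 4.25 lay within each other's spread. Amd1 at 16.1 ± 0.439 and Sms at 9.48 ± 1.46 both lay within the wide spread of Pycr1 at 13.2 ± 9.09, but not within each other's. With the Ogdh hairpins at day 4, Sat1 led at 99.7 ± 23.1 CPM per kilobase (SD, n = 4 clones). Srm at 51.2 ± 12.8, Odc1 at 42.7 ± 7.80 and Azin1 at 42.1 ± 7.01 followed, with overlapping spreads. Aldh18a1 at 18.3 ± 3.53, Amd1 at 12.3 ± 1.61, Sms at 5.11 ± 0.956 and Pycr1 at 1.89 ± 0.604 came last.

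Across the 12 sums of a clone and day, which share the hairpins and the days, log2 levels of the 6 fallen genes correlated with Pearson's r of 0.81 (Odc1 with Amd1) to 0.97 (Odc1 with Srm). Sat1 ran against them, from -0.70 with Amd1 to -0.88 with Aldh18a1, and Azin1 was near 0 with Pycr1 (-0.03). Over 9281 other genes with a mean of at least 5 CPM, leaving out clone-based and pseudogene symbols, Pycr1 was most like Ndufb5 (r = 0.991), Mrps35 and Ndufs3, genes of the respiratory chain and the mitochondrial ribosome. Aldh18a1 was most like Cmss1 (0.996), Mars, the methionyl-tRNA synthetase, and Naf1. Odc1 was most like Bop1 (0.993), a ribosome assembly factor, with Nme1 and Eif3b, and Srm like Nolc1 (0.995), a nucleolar protein, with Atp5a1 and Ipo5. For Sms these were Sec31a (0.986), Qdpr and Zfp1, and for Amd1 Mrpl33 (0.964), Lrrc20 and Cryl1. Sat1 was most like Atp6v1e1 (0.991), a proton pump subunit, with Cd300c2 and Metrnl, and Azin1 like Tlr2 (0.907), Fam49a and Kcnj2. These correlations are a description of these 12 sums and do not measure the size of a change. Ndufb5, Mrps35 and Ndufs3 had mean net changes of -0.57, -0.62 and -0.42, beside -2.54 for Pycr1. For Cmss1, Mars and Naf1 they were -1.45, -1.01 and -1.27, beside -1.28 for Aldh18a1. For Mrpl33, Lrrc20 and Cryl1 they were -1.03, -0.86 and -1.57, beside -0.56 for Amd1.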

How the data were processed

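The authors deposited whole-number counts per Ensembl gene for 24 libraries, with a transcript length per gene. The submitters' processing notes list featureCounts 1.6.3, STAR 2.6.1a, Trimmomatic 0.36 and FastQC 0.11.5, and the mouse build mm10 (GRCm38). Per the labels' protocols, polyadenylated RNA was read as single ends. The same protocol names a human build, HTSeq and RPKM, but the deposited values are whole-number counts under mouse identifiers. The strand setting is not given in the sources used here.

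Counts of the 2 libraries per clone and day were added up to 12 sums. The filter filterByExpr left 14249 genes, and TMM factors scaled them. The test of changes was that of edgeR 4.0.16 (robust quasi-likelihood, Benjamini-Hochberg over all genes, threshold 0.05) in R 4.3.3, with the clone as a block, which left 3 residual degrees of freedom. Levels within a day used 6 groups with 6 residual degrees of freedom, which are overstated because each clone enters at both days. Libraries by number were tested unsummed over 13211 genes, and the comparison of that difference between days was added after seeing the data. The p-values rest on the spread between clones, pooled over the 3 hairpins with 2 clones each, and library comparisons on that within clones. In edgeR each gene's spread was also drawn towards that of other genes. The median prior for this was 6.11 degrees of freedom in the test of changes. The clone pairs the days per the labels: deviations from group means correlated at 0.60 to 0.84. DESeq2 1.42.0 was an alternative, and the fits were tested on simulated data. CPM in correlations has a prior count of 2.

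The 8 genes and all lists were chosen with earlier results of these data known. Named genes are the 8, Ogdh, list genes next to them or with the 5 smallest p in a list, and for each of the 8 the 3 genes of highest correlation. Some genes of these routes are not reported here.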

Additional observations from a re-analysis of the deposited data

Results flagged for a closer look

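The difference between library 2 and library 1 of a clone was more negative at day 0 than at day 4 for 3 of the 8 genes, by a test of the difference itself that called 13.7% of all genes lower at day 0. On the log2 scale the day 0 minus day 4 contrast was -0.48 ± 0.08 for Pycr1, -0.24 ± 0.04 for Aldh18a1 and -0.39 ± 0.04 for Odc1 (SE, edgeR adjusted p = 5.45e-06, 2.37e-05 and 5.21e-11). The direction at day 0 held in 6 of 6 clones for each of the 3. What the library numbers stand for is not given in the labels, and the cause was not tested.

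Of 48 groups of 4 libraries, 1 held a sample far from the other 3. Chance flags about 1 in 20 if the 4 values are independent, which 2 libraries of each of 2 clones are not. The flagged group was Srm with shOgdh346 at day 0, where library 2 of clone 1 stood at 193 CPM and the others at 228 to 234 CPM.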

How the results depend on the processing

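Each result was recomputed under 38 alternatives: 6 clones and 24 libraries left out in turn, RLE scaling, no filter, a mean of at least 5 CPM, DESeq2, no clone term, libraries unsummed with the clone and library number as a replicate block, and each day 0 library set alone; levels within a day had 10. For all 8 genes, the mean net change kept its direction in all 38. Aldh18a1, Srm and Sat1 kept the call in all 38, and Azin1 was never called.

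With no clone term the pairing is lost, and Pycr1 (-2.45, adjusted p = 0.0515), Odc1 (-0.57, 0.0707) and Sms (-0.85, 0.0531) missed the threshold, leaving 3 falls among the 8 and 2732 genes called in all, against 5367. With the library number as a replicate block the 8 genes kept 6 falls and 1 rise (Pycr1 -2.53, adjusted p = 1.89e-15) and 7735 genes were called. This lost no call of the mean net change among the 8. Leaving out a clone or library, the mean net change of Odc1 ran from -0.75 to -0.43, of Sms from -1.04 to -0.71 and of Amd1 from -0.64 to -0.50. The genes called in all ran from 2084 (without control clone 7) to 5521, with 2392 without control clone 2, and the falls among the 8 from 3 (without control clone 7) to 6. With 1 control clone left, that clone is assumed to vary like the others. For single hairpins without control clone 7, 3 of the 8 fell with shOgdh346 and 2 with shOgdh2081, and without control clone 2, 3 with each.

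The sign of small, uncalled values turned. The difference between the hairpins was -0.01 for Odc1 with RLE scaling (-0.0105), at least 5 CPM (-0.0152) and DESeq2 (-0.0121), -0.0435 with the replicate block and -0.16 with day 0 library 2 alone, and ran from -0.32 to 0.31 with a clone or library left out. It was -0.0197 for Sms with day 0 library 2 alone, and ran from -0.27 to 0.41 for Sms and from -0.092 to 0.51 for Aldh18a1. The count of genes that differ between the hairpins went from 15 to 0 with no clone term, 7 among genes of at least 5 CPM, 44 with day 0 library 1 alone, 103 with DESeq2, 409 with no filter and 1523 with the replicate block, and ran from 2 to 38 with a library and from 8 to 59 with a clone left out. The genes called in the control's change, 980, ran from 189 to 1476 with a library and from 8 to 1275 with a clone left out. They were 122 and 1978 with day 0 library 2 or 1 alone, 147 with no clone term, 1719 with no filter and 4965 with the replicate block. With day 0 library 2 alone the control's change was 0.0001 for Pycr1 and 0.0587 for Aldh18a1, and the latter ran from -0.10 to 0.035 on leaving out. At day 0, with library 2 alone, the difference from the control was 0.0006 for Pycr1, 0.0285 for Odc1 and 0.0331 for Srm. With a clone left out that difference ran from -0.59 to 0.95 for Pycr1, from -0.0109 to 0.0022 for Odc1, from -0.17 to 0.16 for Srm, from -0.0161 to 0.22 for Azin1 and from -0.0194 to 0.24 for Sat1. For Azin1 the day 4 difference ran from -0.16 to 0.19 and its change with shOgdh2081 from -0.18 to 0.0176. The cause of these shifts was not tested.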
